A study of Mus musculus with 10 samples.

Results

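The 40 genes described here act in DNA repair and in the signalling of DNA damage: 11 in homologous recombination, 9 in the Fanconi anaemia pathway, 5 in end joining, 6 in mismatch, base excision and single-strand break repair, and 9 in damage signalling. They were listed by name and pathway, with no threshold on a measured value, and all 40 were found among the 20270 genes of the deposited table and passed the filter that left 15143 genes for testing. RNA sequencing gave their levels in 10 libraries of mouse hematopoietic stem cells (HSCs), the marrow cells from which all blood lineages descend. The groups were stressed Id1-/- HSCs (KO-labelled, 2 libraries), stressed Id1+/+ HSCs (WT-labelled, 2 libraries), normal Id1-/- HSCs (3 libraries) and normal Id1+/+ HSCs (3 libraries). All carry the strain label C57BL/6, and all cells were purified by flow cytometry from first recipients transplanted with lineage-negative marrow cells of either genotype. Every library thus comes from transplanted marrow, 4 weeks after transplantation by the sample labels and 6 weeks by the series design. The labels define neither stressed nor normal. They do not give the gate of the sort, say whether recipient cells were gated out, or tell separate mice from pooled ones. The p-values therefore reflect only how these libraries vary, which may be technical.

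Homologous recombination mends breaks of both DNA strands by copying the sister chromatid and is used mainly in the S and G2 phases of the cell cycle. The Fanconi anaemia proteins unhook crosslinks between the strands, and their loss in humans causes failure of the marrow through exhaustion of its stem cells. End joining ligates broken ends directly in any phase and is the main route in resting cells, which most HSCs of an undisturbed marrow are, while the kinases Atm and Atr and their effectors Chek2 and Chek1 halt the cycle when damage is sensed.

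Id1, the targeted gene, did not fall in the KO-labelled libraries. It had 9.06 and 8.44 CPM in KO-labelled stressed libraries, against 1.28 and 4.39 CPM in WT-labelled stressed libraries. CPM stands for the reads of a gene relative to the total of its library, here on the normalized scale of the deposited values. In the normal condition it had 13.2, 10.6 and 9.62 CPM in KO-labelled libraries, against 1.35, 1.72 and 3.17 CPM in WT-labelled libraries, a log2 difference of 2.50 (SE 0.45, adjusted p = 0.018 by limma). The genotype of a library is therefore given as its label states it, and every direction between KO and WT below follows those labels. Estimated depth was 25700000 to 33000000 reads per library, so that 1 CPM stood for about 25.7 to 33 reads. These read numbers are approximate, since all libraries share the same lowest and highest deposited value. All 16 listed HSC marker genes were above 0 reads in every library. Their summed level was 4811 to 4917 CPM in KO-labelled stressed and 5209 to 5362 CPM in WT-labelled stressed libraries. It was 5348 to 5724 CPM in KO-labelled normal and 6225 to 6528 CPM in WT-labelled normal libraries. At an adjusted p under 0.05 by limma, 6 were lower under stress in KO-labelled HSCs, and 4 lower and 1 higher in WT-labelled HSCs. Between genotypes, 2 were lower in KO-labelled normal HSCs and 0 differed under stress. Of all genes, 4.50%, 3.30%, 1.56% and 0.145% passed in these comparisons. Some libraries stood apart on single principal components of all genes: KO-labelled normal A at -100.0 on the third component, where the others lay between -12.9 and 31.3, WT-labelled stressed A at -83.0 on the second and WT-labelled stressed B at 94.0 on the fourth. Results that change without one of them are given with and without it.

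Levels between genes were compared as CPM per kilobase of annotated exon, from log2 CPM averaged over the 10 libraries. H2afx, the histone variant phosphorylated around breaks, stood highest at 83.6 CPM per kilobase, followed by Parp1, which senses nicked DNA, at 71.2, and Msh6, a mismatch recognition subunit, at 68.3. The Ku genes Xrcc5 and Xrcc6, whose products cap broken ends for end joining, stood at 31.7 and 31.6 CPM per kilobase. The median over the 40 genes was 7.29 CPM per kilobase, and the lowest were Bard1, the partner of Brca1, at 0.662 and Lig4, the end joining ligase, at 0.622. These last were also the members with fewer than 100 estimated reads in some library, down to 19 reads for Lig4 in WT-labelled stressed A. The median exon length of the members was 5716.5 bases, against 3205 bases over all annotated genes of the table.

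**Figure D1:**
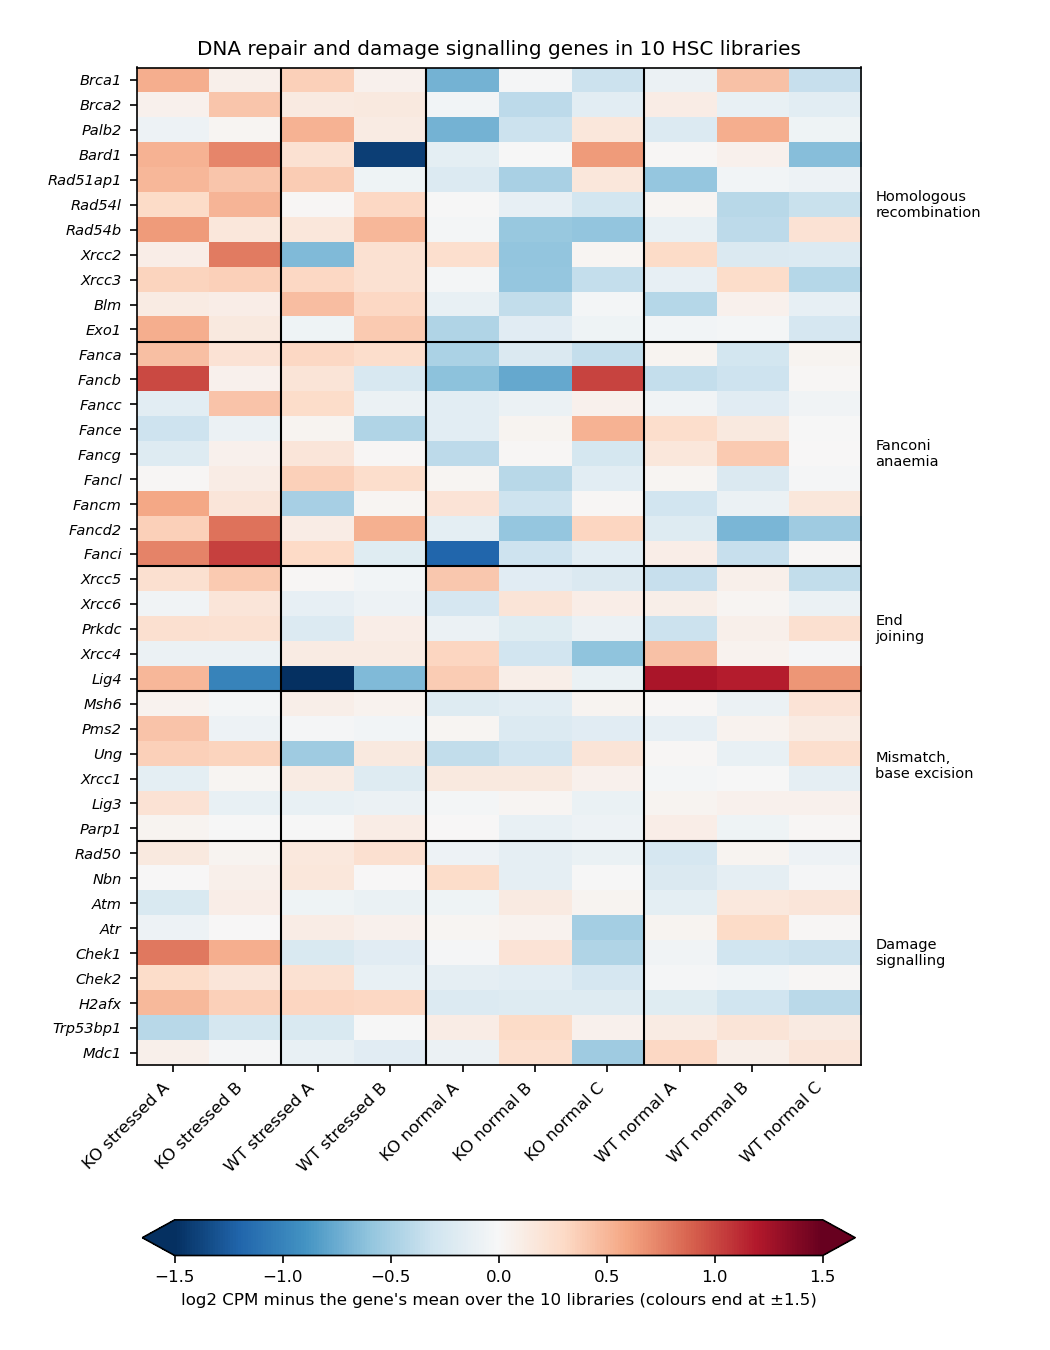
Level of each of the 40 genes in each of the 10 libraries, as log2 CPM minus that gene's mean over the libraries, with genes in rows by role and libraries in columns by group. Fanci and Chek1 are highest in the 2 KO-labelled stressed libraries, H2afx is higher in all 4 stressed libraries than in all 6 normal ones, and Lig4 is highest in the 3 WT-labelled normal libraries.

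The promoters of 5 members are shown because the transcripts of 3 of them, Fanca, Fanci and Chek1, rose in stressed KO-labelled HSCs, while Brca2 and Chek2 hold a word known as an E2F site, which regulates genes used for DNA synthesis. Each is the 250 bases before the RefSeq start of the gene on GRCm38.p6, read 5′ to 3′ along the gene, and capitals mark the words that were searched. RefSeq starts can lie inside the gene bounds of the annotation given further on.
Fanca, chr8:123318577-123318826, minus strand: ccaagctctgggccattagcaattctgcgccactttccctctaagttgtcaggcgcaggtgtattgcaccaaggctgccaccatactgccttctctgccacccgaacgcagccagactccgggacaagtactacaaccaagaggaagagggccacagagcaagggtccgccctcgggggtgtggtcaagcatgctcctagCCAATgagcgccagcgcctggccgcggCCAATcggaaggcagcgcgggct
Fanci, chr7:79392088-79392337, plus strand: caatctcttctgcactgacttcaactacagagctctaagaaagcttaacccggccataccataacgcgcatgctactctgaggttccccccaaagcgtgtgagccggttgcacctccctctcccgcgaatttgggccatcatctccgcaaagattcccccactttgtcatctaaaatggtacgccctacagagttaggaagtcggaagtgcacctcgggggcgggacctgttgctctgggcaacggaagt
Chek1, chr9:36726659-36726908, minus strand: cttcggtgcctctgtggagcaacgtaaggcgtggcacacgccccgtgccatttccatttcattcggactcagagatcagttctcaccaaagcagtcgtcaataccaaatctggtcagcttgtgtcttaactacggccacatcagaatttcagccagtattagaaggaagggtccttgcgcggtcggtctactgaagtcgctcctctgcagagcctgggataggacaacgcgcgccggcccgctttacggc
Chek2, chr5:110839733-110839982, plus strand: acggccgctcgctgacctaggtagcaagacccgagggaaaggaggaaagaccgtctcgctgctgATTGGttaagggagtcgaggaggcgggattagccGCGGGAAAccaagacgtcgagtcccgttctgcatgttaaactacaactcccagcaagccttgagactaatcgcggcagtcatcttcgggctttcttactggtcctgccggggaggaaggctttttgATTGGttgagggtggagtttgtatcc
Brca2, chr5:150522371-150522620, plus strand: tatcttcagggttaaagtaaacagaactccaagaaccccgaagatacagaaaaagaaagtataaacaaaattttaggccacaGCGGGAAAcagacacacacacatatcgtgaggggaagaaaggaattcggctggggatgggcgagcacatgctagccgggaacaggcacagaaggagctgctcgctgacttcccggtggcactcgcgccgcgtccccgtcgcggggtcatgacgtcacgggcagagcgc

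The words searched on both strands were the E2F site as TTTCCCGC, TTTCGCGC, TTTGCCGC or TTTGGCGC, the CHR element of mitotic genes as TTTGAA, and the CCAAT box as CCAAT. No word contains another. RefSeq gave a promoter for 32 of the 40 members, and a word was counted per gene in the 250 bases before any of its starts. An E2F word was found in 6 of these 32 (18.8%), which are Bard1, Brca2, Chek2, Fancg, Mdc1 and Xrcc6, against 3.88% of the 10425 tested genes with a promoter and 29.6% of listed G1/S replication genes. The CHR word was found in 1 of the 32 (3.13%), Bard1, against 13% of all and 36.0% of listed G2/M mitosis genes. CCAAT was found in 17 of the 32 (53.1%), against 40.2% of all. Fanca holds CCAAT at 50 and 23 bases before its start and Chek2 holds it in reverse at 186 and 26 bases, with the E2F word at 152 bases. The windows of Fanci and Chek1 hold none of the searched words. Both windows lie inside the annotated bounds of their genes, so the bases before those annotated starts were not searched.

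Stressed against normal KO-labelled HSCs gave more member calls than any of the other 4 comparisons. Of the members 4 rose, namely Fanci and Fanca of the Fanconi pathway, the replication checkpoint kinase Chek1 and the histone H2afx, and Trp53bp1, which shields breaks from resection, fell. These 5 calls among 40 stand beside 4.50% of all genes tested called in this comparison, with a call meaning an adjusted p under 0.05. By direction, 4 of 40 were called higher and 1 of 40 lower, against 2.23% and 2.28% of all genes. The fitted difference was above 0 for 34 of the 40 members, against 50.1% of all genes, with a median log2 difference of 0.30 for the members and 0.00 for all genes. At an unadjusted p under 0.05 there were 14 higher and 1 lower, against 8.41% and 9.48% of all genes. The stressed and normal libraries did not overlap for 17 members that were higher and 2 that were lower, against 16.5% and 16.6% of all genes. In bulk RNA, more or fewer cells of a type and more or less transcript per cell cannot be told apart. Mitosis genes and some markers of other blood cells differed between the same groups, with the values given further on.

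Fanci, which with Fancd2 forms the clamp that the Fanconi ubiquitin ligase marks at a crosslink, had 35.8 and 43.6 CPM in KO-labelled stressed libraries, against 9.39, 17.3 and 19.1 CPM in KO-labelled normal libraries. Both stressed libraries lay above all 3 normal ones, and the lowest normal value came from library A, which stood apart on the third component. The log2 difference was 1.44 (SE 0.29, adjusted p = 0.017). The gene lies at chr7:79391929-79450264 of mm10, and 16.0% of its exon bases overlap Polg on the opposite strand. The counting may not have used strand, and Polg itself had a log2 difference of 0.40 (SE 0.12, adjusted p = 0.085) in the same direction, so the part of overlapping reads in the Fanci difference was not tested. In WT-labelled libraries Fanci had 26.2 and 18.9 CPM under stress, against 22.9, 16.8 and 21.6 CPM in the normal condition, and these ranges overlap.

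Fanca, a scaffold subunit of the Fanconi core complex, had 44.9 and 38.2 CPM in KO-labelled stressed libraries, against 23.7, 28.1 and 25.5 CPM in KO-labelled normal libraries. The groups did not overlap, and the log2 difference was 0.69 (SE 0.15, adjusted p = 0.028). Fanca lies at chr8:123268300-123318576, with 10.5% of its exon bases shared with Zfp276 on the other strand, whose own log2 difference was -0.39 (SE 0.15, adjusted p = 0.20). In WT-labelled libraries Fanca had 40.6 and 39.3 CPM under stress, against 33.8, 27.2 and 33.7 CPM in the normal condition. These groups did not overlap either, but the log2 difference of 0.35 (SE 0.15, adjusted p = 0.28) did not pass the test. The stressed values of both genotypes lay close together, while the KO-labelled normal values reached lower than the WT-labelled normal ones.

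Chek1, the kinase that restrains replication origins and mitotic entry downstream of Atr, had 67.5 and 56.9 CPM in KO-labelled stressed libraries, against 38.5, 44.9 and 28.6 CPM in KO-labelled normal libraries. Its log2 difference was 0.75 (SE 0.19, adjusted p = 0.043), just under the threshold, and the call was lost when any single library other than KO-labelled normal B was left out. WT-labelled libraries had 33.3 and 34.5 CPM under stress, against 37.5, 31.7 and 31.2 CPM in the normal condition, a log2 difference of 0.02 (SE 0.19, adjusted p = 0.97). The KO-labelled stressed libraries were thus the highest of the 10. Chek1 lies at chr9:36708482-36727065.

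H2afx had 162 and 148 CPM in KO-labelled stressed libraries, against 100, 101 and 101 CPM in KO-labelled normal libraries, and 145 and 144 CPM in WT-labelled stressed libraries, against 102, 93.7 and 87.2 CPM in WT-labelled normal libraries. No stressed library overlapped a normal one. The log2 difference was 0.61 (SE 0.09, adjusted p = 0.0026) in KO-labelled and 0.62 (SE 0.09, adjusted p = 0.0033) in WT-labelled HSCs. The difference between these changes was -0.01 (SE 0.13, adjusted p = 0.99). H2afx lies at chr9:44334694-44336077 in a single exon, and its transcript shares stretches of 116 to 203 bases at 95% identity or more with short annotated genes of no known function, so part of its count is uncertain.

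Trp53bp1 had 131 and 146 CPM in KO-labelled stressed libraries, against 189, 214 and 184 CPM in KO-labelled normal libraries. The log2 difference was -0.50 (SE 0.09, adjusted p = 0.012), and the groups did not overlap. WT-labelled libraries had 150 and 175 CPM under stress, against 192, 202 and 192 CPM in the normal condition, again without overlap, but the log2 difference of -0.27 (SE 0.09, adjusted p = 0.16) did not pass. The gene lies at chr2:121193281-121271407, and 15% of its exon bases overlap Tubgcp4 on the opposite strand, whose own difference in KO-labelled HSCs was -0.22 (SE 0.23, adjusted p = 0.69). Of the calls in KO-labelled HSCs, only H2afx was also called when KO-labelled stressed library A was left out, and only H2afx and Trp53bp1 when library B was left out. Without KO-labelled normal A or without KO-labelled normal C, the calls were Fanci, H2afx and Trp53bp1 in each case.

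**Figure D2:**
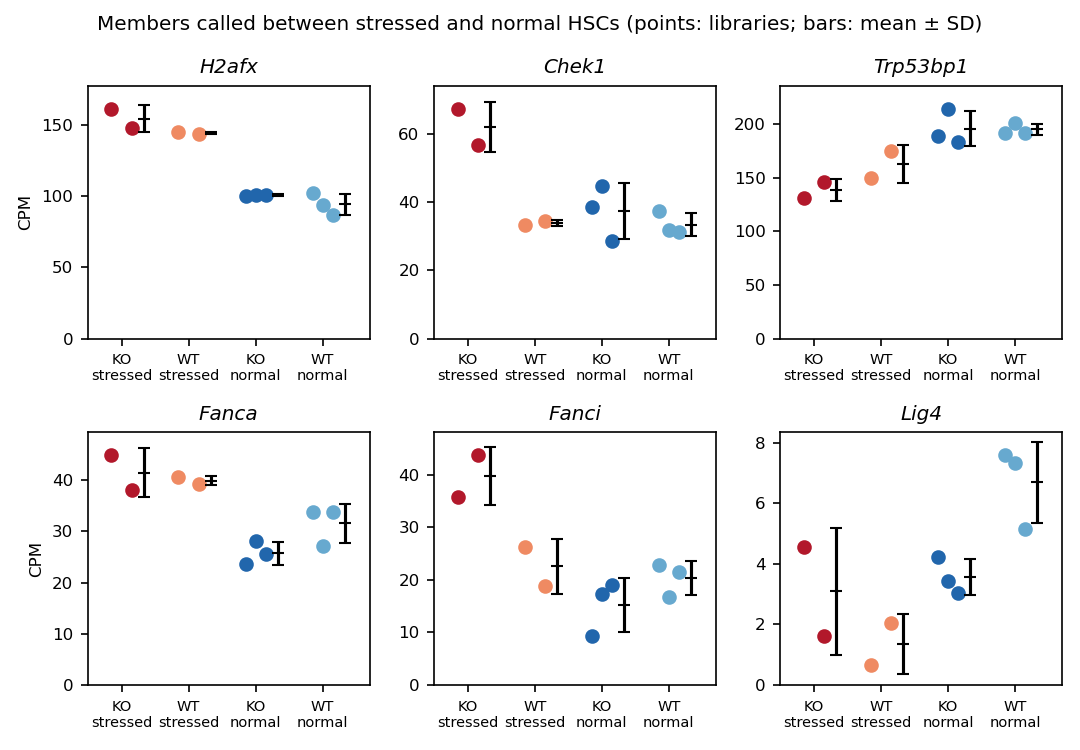
CPM of the 6 members called in any comparison, with 1 point per library and black bars for the group mean ± SD, for KO-labelled stressed, WT-labelled stressed, KO-labelled normal and WT-labelled normal libraries from left to right. Chek1 and Fanci have their 2 highest values in the KO-labelled stressed libraries, H2afx has its 4 highest in the stressed groups, and the 2 WT-labelled stressed values of Lig4, 0.659 and 2.05 CPM, lie below all 3 of its WT-labelled normal values, 7.58, 7.34 and 5.14 CPM.

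None of the homologous recombination genes was called in KO-labelled HSCs, yet all 11 had a fitted difference above 0 under stress, with a median of 0.54, and 8 of the 11 were higher without overlap between groups, against 16.5% of all genes. At an unadjusted p under 0.05 there were 7 of the 11, all higher, against 8.41% of all genes. Of 30 other tested genes of homologous recombination, 21 were above 0, with a median of 0.16, and 9 were higher without overlap. Rad54l, a motor that drives strand invasion, had 98.7 and 115 CPM in KO-labelled stressed libraries, against 80.1, 74.3 and 66.8 CPM in KO-labelled normal libraries (log2 difference 0.54, SE 0.15, adjusted p = 0.078). Rad54b, its relative, had a log2 difference of 0.80 (SE 0.25, adjusted p = 0.10), although 35.8% of its exon bases are shared with Fsbp on the same strand. Exo1, the nuclease that resects broken ends, had 79.9 and 60.5 CPM in KO-labelled stressed libraries, against 39.97, 48.4 and 52.1 CPM in KO-labelled normal libraries (0.58, SE 0.18, adjusted p = 0.10). Brca2, a mediator of strand exchange, had 77.6 and 98.7 CPM under stress in KO-labelled libraries, against 72.1, 56.8 and 66.4 CPM in the normal condition (0.43, SE 0.14, adjusted p = 0.12).

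Brca1 had 57.9 and 41.8 CPM in KO-labelled stressed libraries, against 24.3, 39.2 and 31.8 CPM in KO-labelled normal libraries, and its log2 difference of 0.66 (SE 0.25) had an adjusted p of 0.20. Xrcc3, which acts in strand exchange, had 0.67 (SE 0.22, adjusted p = 0.12), and Rad51ap1, which stimulates strand exchange, 0.63 (SE 0.23, adjusted p = 0.16). Stressed and normal KO-labelled libraries did not overlap for any of these 3, although none passed the test. The remaining recombination genes, Palb2, Bard1, Xrcc2 and Blm, had log2 differences of 0.26, 0.47, 0.54 and 0.28 with adjusted p-values of 0.69, 0.69, 0.42 and 0.40.

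Of the 9 Fanconi genes, 8 had a difference above 0 in KO-labelled HSCs, with a median of 0.42, and Fanca and Fanci were called. Fancd2, the partner of Fanci, had 28.9 and 39.8 CPM in KO-labelled stressed libraries, against 20.5, 15.1 and 28.2 CPM in KO-labelled normal libraries (0.72, SE 0.27, adjusted p = 0.19). Fance, which joins the core complex to Fancd2, went the other way, with 31.0 and 36.1 CPM under stress, against 34.5, 39.3 and 55.1 CPM in normal KO-labelled libraries (-0.33, SE 0.21, adjusted p = 0.46). End joining genes had a median of 0.10 and mismatch, base excision and single-strand break repair genes also 0.10, with none called in either role. Of these, Prkdc, the end joining kinase, had 113 and 112 CPM in KO-labelled stressed libraries, against 89.9, 84.2 and 89.5 CPM in KO-labelled normal libraries, without overlap (0.35, SE 0.15, adjusted p = 0.25). Xrcc1, the scaffold of single-strand break repair, had 81.2 and 91.3 CPM under stress, against 99.7, 99.7 and 93.9 CPM in normal KO-labelled libraries (-0.18, SE 0.11, adjusted p = 0.44).

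In damage signalling, 6 of 9 genes were above 0 in KO-labelled HSCs with a median of 0.15. Chek2, the effector kinase of Atm, had 74.5 and 69.7 CPM in KO-labelled stressed libraries, against 56.0, 55.0 and 51.6 CPM in KO-labelled normal libraries, without overlap, but at an adjusted p of 0.082 its log2 difference of 0.41 (SE 0.12) did not pass. The kinases Atm and Atr had log2 differences of -0.10 and 0.11 with adjusted p-values of 0.76 and 0.79.

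Stressed against normal WT-labelled HSCs gave 2 calls among the 40 members: H2afx rose, with the values above, and Lig4 fell. This stands beside 3.30% of all genes called, 1.55% higher and 1.75% lower. The fitted difference was above 0 for 24 of the 40 members, against 51.1% of all genes, with a median of 0.06 for the members and 0.01 for all genes. The median was 0.18 without WT-labelled stressed B, a library that stood apart on the fourth component. At an unadjusted p under 0.05 there were 7 higher and 2 lower, against 7.98% and 8.84% of all genes. The groups did not overlap for 8 members that were higher and 4 that were lower, against 19.7% and 16.7% of all genes.

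Lig4, the ligase of end joining, had 0.659 and 2.05 CPM in WT-labelled stressed libraries, against 7.58, 7.34 and 5.14 CPM in WT-labelled normal libraries. The groups were well apart and the log2 difference was -2.50 (SE 0.55, adjusted p = 0.033), on levels that are the lowest per kilobase of the members. The call was lost without WT-labelled stressed A, the library with the lowest value, and also without any single WT-labelled normal library. KO-labelled libraries had 4.57 and 1.62 CPM under stress, against 4.23, 3.44 and 3.03 CPM in the normal condition, which overlap. Lig4 lies at chr8:9969049-9977686.

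Below the threshold in WT-labelled HSCs, Blm, a helicase that unwinds recombination intermediates, had 60.9 and 54.8 CPM under stress, against 32.7, 46.1 and 40.5 CPM in the normal condition (0.55, SE 0.16, adjusted p = 0.098). Rad50, which tethers broken ends, had 161 and 170 CPM under stress, against 121, 148 and 137 CPM in normal WT-labelled libraries (0.29, SE 0.09, adjusted p = 0.12). Both genes were separated between the groups without passing the test. Mdc1, the reader of phosphorylated H2afx protein, had 65.3 and 62.5 CPM under stress, against 87.2, 74.6 and 79.6 CPM in normal WT-labelled libraries (-0.33, SE 0.18, adjusted p = 0.40). Fancd2 had 24.4 and 32.6 CPM under stress, against 19.8, 14.0 and 15.5 CPM in the normal condition (0.79, SE 0.27, adjusted p = 0.15), against 0.72 in KO-labelled HSCs (interaction -0.07, SE 0.38, adjusted p = 0.97). By role, 9 of 11 recombination genes and 6 of 9 Fanconi genes were above 0, with medians of 0.26 and 0.18, while 1 of 5 end joining genes was above 0, with a median of -0.05.

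**Figure D3:**
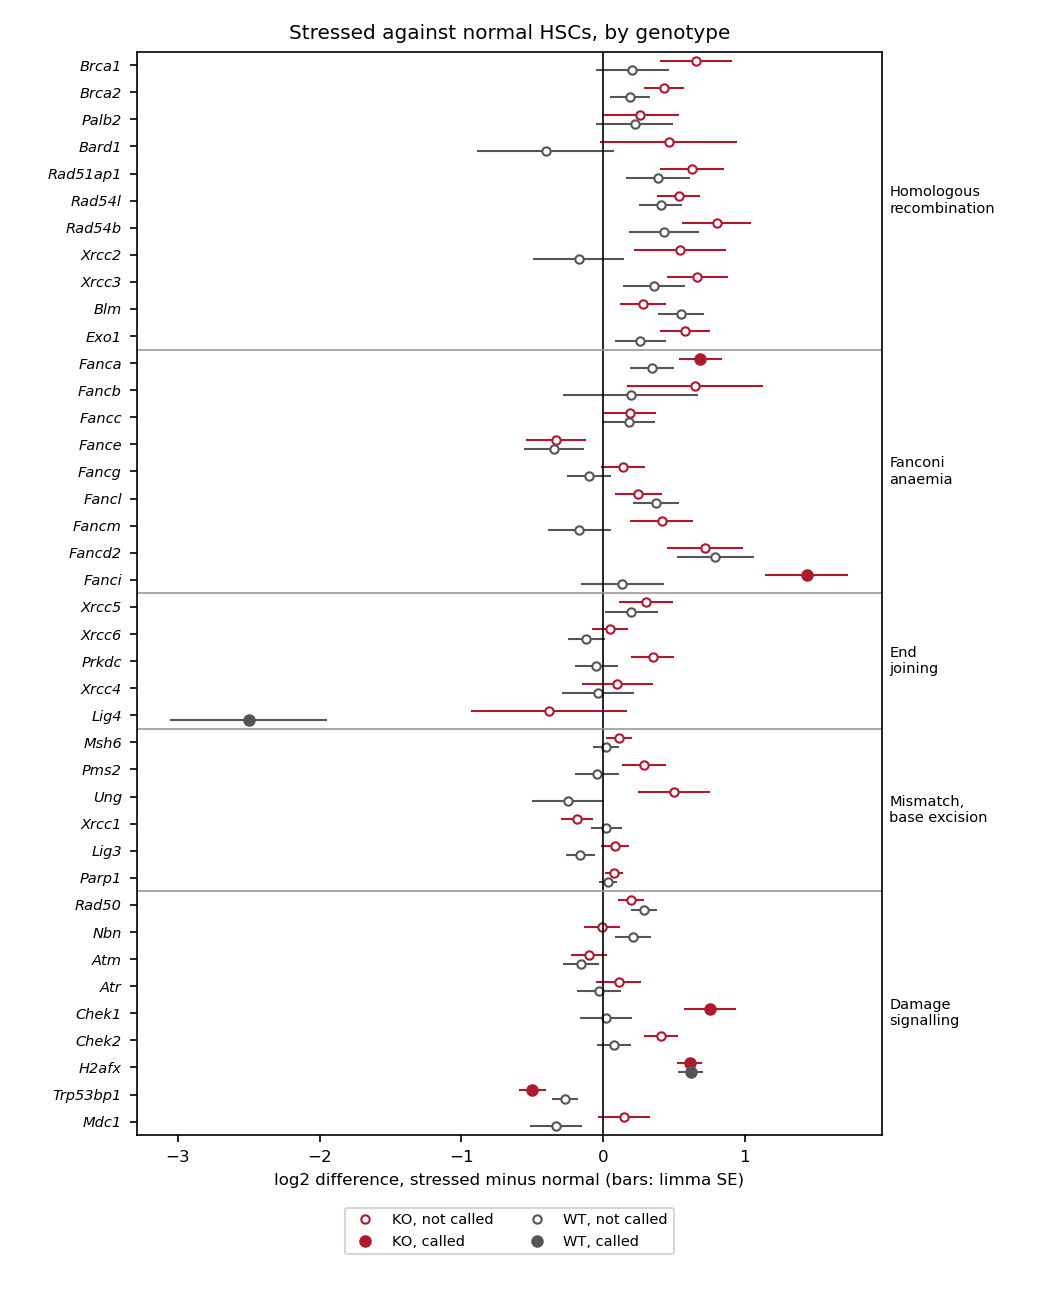
Fitted log2 difference of stressed minus normal HSCs for each of the 40 genes, in KO-labelled and in WT-labelled HSCs, with bars for the limma SE and filled points for an adjusted p under 0.05. All 11 recombination genes lie above 0 in KO-labelled HSCs, and H2afx has nearly equal changes of 0.61 in KO-labelled and 0.62 in WT-labelled HSCs.

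The stress changes of the genotypes come from separate libraries and were set side by side. The change in KO-labelled HSCs lay above that in WT-labelled HSCs for 32 of 40 members, against 49.5% of all genes and 65 of 122 other genes of the same pathways. The test of this difference, the interaction, called none of the 40 members, with 0.0198% of all genes called. At an unadjusted p under 0.05 there were 3 members with a positive interaction and none with a negative one, against 4.49% and 4.66% of all genes. These were Fanci (1.30, SE 0.41, adjusted p = 0.37), Chek1 (0.73, SE 0.26, adjusted p = 0.43) and Lig4 (2.12, SE 0.78, adjusted p = 0.45). The most negative moderated statistics were those of Trp53bp1 (-0.23, SE 0.13, adjusted p = 0.62), Xrcc1 (-0.21, SE 0.16, adjusted p = 0.72) and Nbn, a partner of Rad50 (-0.22, SE 0.18, adjusted p = 0.75), while the most negative difference was that of Blm (-0.27, SE 0.23, adjusted p = 0.76). The median interaction of the members was 0.24, against -0.00 over all genes and 0.02 over those 122 other genes. It was 0.14 without KO-labelled stressed B, and 0.11 with a trend over gene length removed. The sign of the stress change was shared between genotypes by 26 of 40 members (65.0%), against 60.0% of all genes. Across the 40 genes, which share libraries and are not independent, Pearson's r between the changes was 0.51 and Spearman's rho 0.53, against 0.25 and 0.28 across all genes.

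Between KO-labelled and WT-labelled HSCs under stress, no member was called, where 0.145% of all genes were. At an unadjusted p under 0.05 there were 4 higher and 1 lower, against 4.41% and 4.46% of all genes. The fitted difference was above 0 for 28 of 40 members, against 49.9% of all genes, with a median of 0.10 and of 0.00 for all genes. Chek1 had the smallest p, with 67.5 and 56.9 CPM in KO-labelled stressed libraries, against 33.3 and 34.5 CPM in WT-labelled stressed libraries (log2 difference 0.87, SE 0.20, unadjusted p = 0.0012, adjusted p = 0.23 by limma). Its groups were far apart, but over all genes the difference did not pass. Fanci had 0.83 (SE 0.32, adjusted p = 0.49). Fancm, the motor protein that recruits the Fanconi core complex, had 46.2 and 34.9 CPM in KO-labelled stressed libraries, against 21.9 and 31.5 CPM in WT-labelled stressed libraries (0.61, SE 0.24, adjusted p = 0.51). Bard1 had 5.38 and 6.23 CPM in KO-labelled stressed libraries, against 4.38 and 1.41 CPM in WT-labelled stressed libraries (1.22, SE 0.53, adjusted p = 0.54).

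Lower in KO-labelled stressed libraries, without passing the test, were Trp53bp1, with 131 and 146 CPM against 150 and 175 CPM in WT-labelled stressed libraries (-0.23, SE 0.10, adjusted p = 0.55), and Blm, with 48.2 and 47.3 CPM against 60.9 and 54.8 CPM (-0.27, SE 0.18, adjusted p = 0.71). Fancl, the ubiquitin ligase subunit of the core complex, had 28.4 and 30.3 CPM in KO-labelled stressed libraries, against 35.9 and 33.6 CPM in WT-labelled stressed libraries (-0.24, SE 0.18, adjusted p = 0.75). The groups of all 3 were apart. In all, 12 members were higher and 7 lower without overlap, against 19.2% and 19.9% of all genes, in groups of only 2 libraries each.

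In the normal condition, too, no member was called between KO-labelled and WT-labelled HSCs, where 1.56% of all genes were, and 13 of 40 had a fitted difference above 0, against 48.5% of all genes. The median was -0.09 for the members and -0.01 for all genes. When a trend over gene length was removed within each library, the member median was 0.01 and that of all genes 0.05. At an unadjusted p under 0.05 there was 1 member, Fancg, and none higher, against 6.39% of all genes lower and 7.49% higher. Fancg, a core complex subunit, had 43.1, 57.0 and 47.1 CPM in KO-labelled normal libraries, against 63.5, 74.1 and 56.9 CPM in WT-labelled normal libraries (-0.40, SE 0.14, adjusted p = 0.22). The ranges overlapped. Fanca had -0.29 (SE 0.14, adjusted p = 0.38), from the normal values given above.

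Mdc1 had 66.4, 84.1 and 48.7 CPM in KO-labelled normal libraries, against 87.2, 74.6 and 79.6 CPM in WT-labelled normal libraries (-0.31, SE 0.16, adjusted p = 0.44), with its lowest value in KO-labelled normal library C. Xrcc1 had 99.7, 99.7 and 93.9 CPM in KO-labelled normal libraries, against 87.7, 89.5 and 81.7 CPM in WT-labelled normal libraries (0.18, SE 0.10, adjusted p = 0.46). Nbn had 95.3, 72.0 and 78.7 CPM in KO-labelled normal libraries, against 67.8, 71.7 and 77.9 CPM in WT-labelled normal libraries (0.17, SE 0.11, adjusted p = 0.56). Xrcc1 was the single member higher without overlap, against 10.9% of all genes. Lig4, Chek2 and Lig3, a ligase of single-strand break repair, were lower without overlap, 3 of 40 against 8.64% of all genes. Fancd2 had 0.34 (SE 0.24, adjusted p = 0.59).

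**Figure D4:**
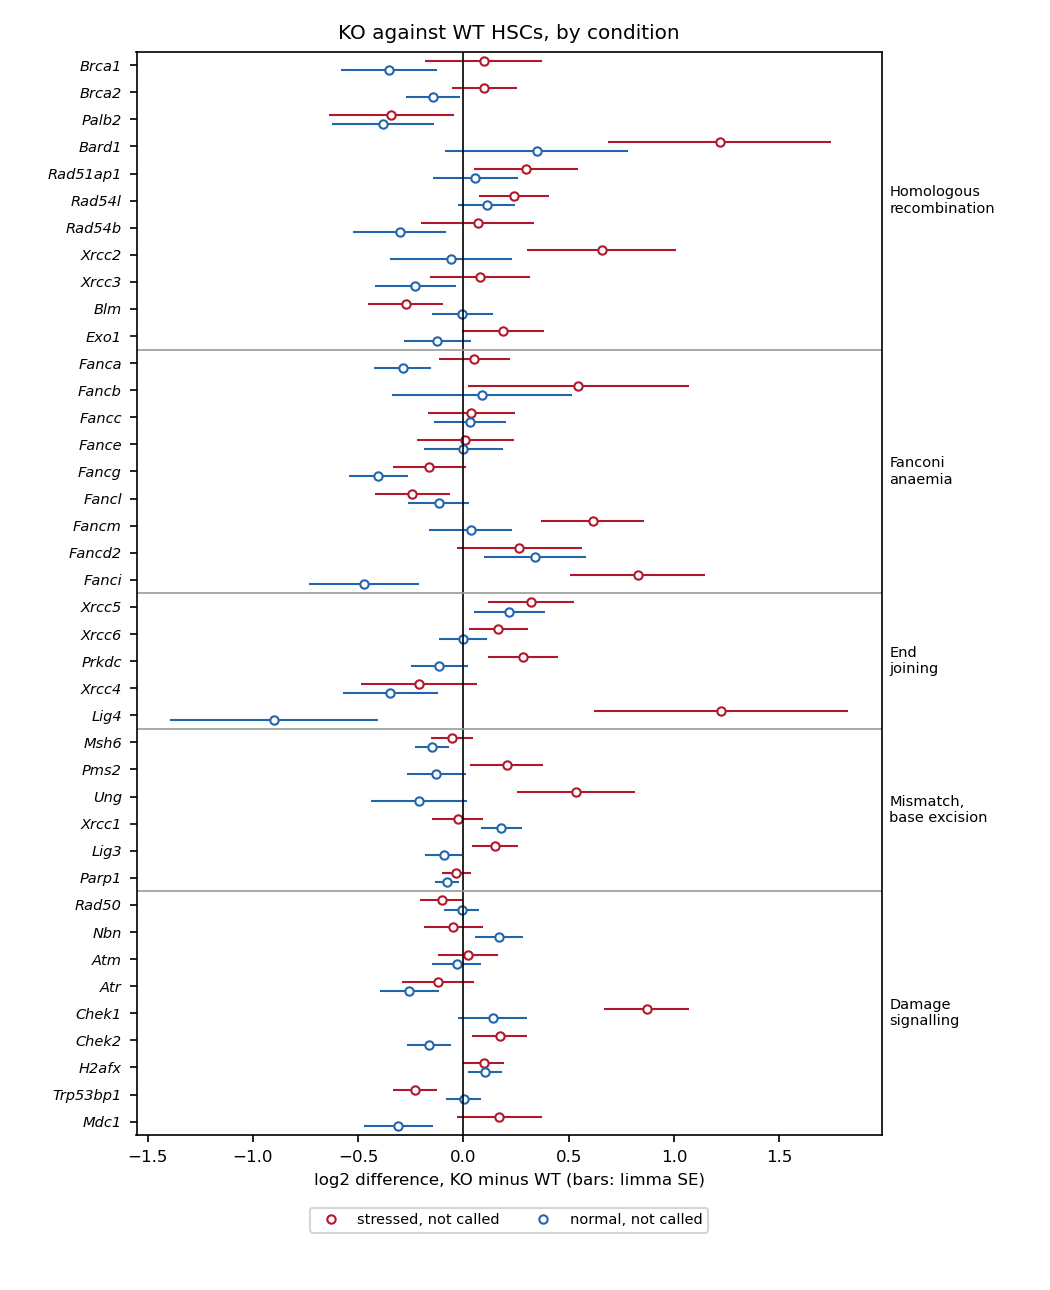
Fitted log2 difference of KO-labelled minus WT-labelled HSCs for each of the 40 genes, in the stressed and in the normal condition, with bars for the limma SE. No gene passed the test in either condition; Chek1 lies at 0.87 under stress and 0.14 in the normal condition.

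Some members had similar mean levels in all groups. Parp1 had 387 and 375 CPM in KO-labelled stressed, 374 and 407 in WT-labelled stressed, 378, 348 and 357 in KO-labelled normal and 402, 360 and 382 CPM in WT-labelled normal libraries. Msh6 ranged from 259 to 342 CPM over the 10 libraries and Xrcc6 from 118 to 162 CPM. The lowest and the highest Xrcc6 value both came from KO-labelled normal libraries. The within-group SD on the log2 scale was smallest for Parp1, at 0.07, and H2afx, at 0.08. It was largest for Lig4, at 0.68, for Fancb, an X-linked core complex subunit, at 0.65, and for Bard1, at 0.58, all of which are low genes.

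A further list of 124 other genes of these pathways and of nucleotide excision repair was read the same way, of which 122 were tested. Under stress 9 were called higher and 0 lower in KO-labelled HSCs (median 0.11), against 2.23% and 2.28% of all genes. In WT-labelled HSCs 7 were called higher and 0 lower (median 0.09), against 1.55% and 1.75% of all genes. Shared between these calls were 5 genes, 55.6% of the KO-labelled list and 71.4% of the WT-labelled list. They included the replication ligase Lig1 (0.50 in KO-labelled and 0.38 in WT-labelled HSCs), the glycosylase Neil3 (1.44 and 1.49), the mitotic phosphatase Cdc25c (2.01 and 1.48) and Clspn, which presents Chek1 to Atr (0.96 and 1.07). Called in KO-labelled HSCs besides these were Brip1 (0.94), Eme1 (1.21), Rpa1 (0.32) and Usp1 (0.53), and called in WT-labelled HSCs Rpa3 (0.59) and Rbbp8 (0.58). Of 22 alternatives, Neil3 was called in all for both genotypes, but Rpa1 and, in WT-labelled HSCs, Lig1 in 9, Rbbp8 in 11, Eme1 and Rpa3 in 13, and Brip1 and, in KO-labelled HSCs, Clspn in 14. In KO-labelled HSCs, Rpa1, Eme1, Brip1, Clspn, Lig1 and Usp1 lost the call when either KO-labelled stressed library was left out. In WT-labelled HSCs, Lig1, Rbbp8, Rpa3, Clspn and Cdc25c lost it when either WT-labelled stressed library was left out. Lig1, Rbbp8 and Rpa3 also lost it without any single WT-labelled normal library, and Clspn without WT-labelled normal A or B. Between KO-labelled and WT-labelled HSCs, 0 of the 122 were called under stress, where 0.145% of all genes were. At an unadjusted p under 0.05 there were 2 higher and 3 lower, against 4.41% and 4.46% of all genes. In the normal condition 0 were called by limma as well, where 1.56% of all genes were. At the same unadjusted level 7 were higher and 3 lower, against 7.49% and 6.39% of all genes. No nucleotide excision repair gene was called in any comparison. In KO-labelled HSCs under stress, 0 of 16 had an unadjusted p under 0.05 by limma, against 8.41% of all genes higher and 9.48% lower.

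Of 27 tested target genes of p53, the transcription factor that Atm and Chek2 activate, none was called higher under stress. Of all genes, only 2.23% were called higher in KO-labelled and 1.55% in WT-labelled HSCs, so a count of 0 among 27 says little. Fitted differences were above 0 for 8 of the 27 in KO-labelled and 11 of the 27 in WT-labelled HSCs, against 50.1% and 51.1% of all genes. At an unadjusted p under 0.05 by limma, 2 were higher in KO-labelled HSCs and none in WT-labelled HSCs, against 8.41% and 7.98% of all genes. Plk2 fell in both genotypes, with log2 differences of -1.51 (SE 0.23, adjusted p = 0.0037) in KO-labelled and -2.05 (SE 0.23, adjusted p = 0.0007) in WT-labelled HSCs. Ccng1 fell in KO-labelled HSCs (-0.49, adjusted p = 0.014 by limma). Plk2 was called in 22 of 22 alternatives in both genotypes and Ccng1 in 18. The call of Ccng1 was lost when either KO-labelled stressed library was left out. By direction, 2 of the 27 targets were called lower in KO-labelled and 1 in WT-labelled HSCs, against 2.28% and 1.75% of all genes. The median over these targets was -0.15 in KO-labelled and -0.06 in WT-labelled HSCs, against 0.00 and 0.01 for all genes.

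Genes of the cell cycle moved with the stressed condition. All 29 listed G2/M mitosis genes were called higher under stress in KO-labelled HSCs and 25 in WT-labelled HSCs, with medians of 1.14 and 1.02. Of 35 listed G1/S replication genes, 11 were called higher in KO-labelled and 3, namely Rrm1, Rrm2 and Tk1, in WT-labelled HSCs, with medians of 0.36 and 0.23. Among all genes, 2.23% were called higher in KO-labelled and 1.55% in WT-labelled HSCs. The summed level of the G2/M genes was 3031 to 3107 CPM in KO-labelled stressed, 2678 to 2748 in WT-labelled stressed, 1422 to 1529 in KO-labelled normal and 1393 to 1442 CPM in WT-labelled normal libraries. The summed level of the 11 recombination genes was also higher in the stressed groups of either genotype, at 545 to 556, 497 to 514, 358 to 404 and 383 to 439 CPM in the same groups. That of the 9 Fanconi genes was 308 to 330, 276 to 298, 227 to 280 and 261 to 275 CPM. End joining genes had 366 to 396, 315 to 337, 326 to 343 and 323 to 357 CPM. Mismatch, base excision and single-strand break repair genes had 926 to 992, 951 to 962, 885 to 923 and 912 to 994 CPM. Damage signalling genes had 923 to 925, 915 to 916, 795 to 911 and 858 to 910 CPM. The G1/S genes had 6725 to 6835, 6262 to 6456, 5305 to 5513 and 5547 to 5746 CPM. The part of the cell cycle in the members' differences was not tested.

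**Figure D5:**
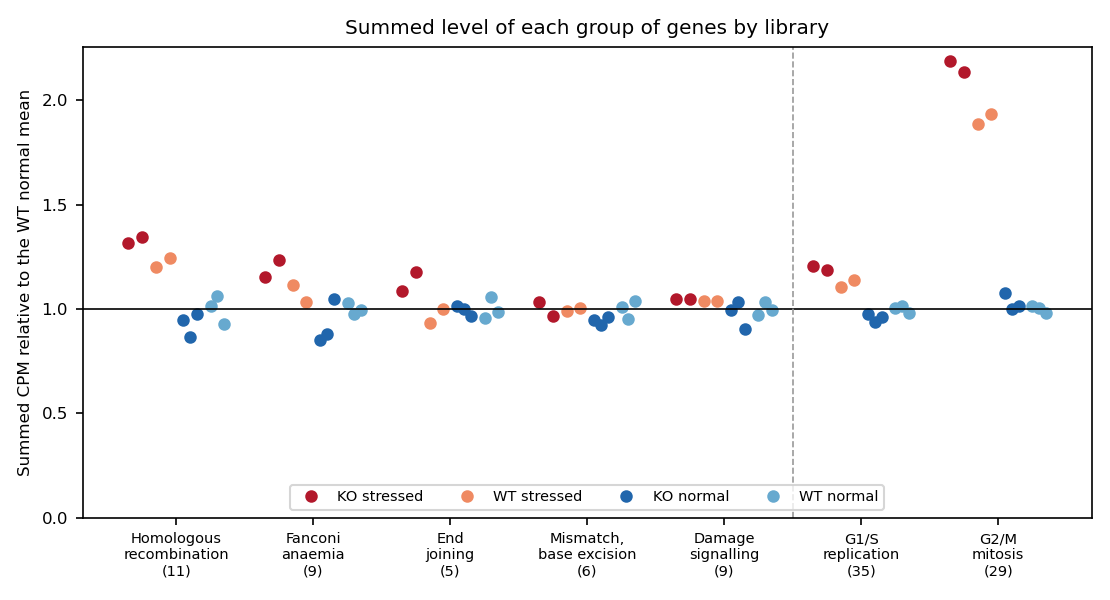
Summed CPM of each role of the 40 genes and of the listed G1/S and G2/M genes in each library, divided by the mean of the WT-labelled normal libraries, with 1 point per library and the number of genes in brackets. The KO-labelled stressed libraries reach 1.32 and 1.34 for the recombination genes and 2.14 and 2.19 for the G2/M genes, where WT-labelled stressed libraries reach 1.20 and 1.24 and 1.89 and 1.94.

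Markers of other blood cells also differed between the groups. Of 10 listed B and plasma cell markers, 8 were in the table, and their summed level was 215 to 216 CPM in KO-labelled stressed libraries, against 48.1 to 48.8 CPM in WT-labelled stressed, 54.0 to 60.1 in KO-labelled normal and 55.0 to 61.8 CPM in WT-labelled normal libraries. Igkc, an immunoglobulin light chain, and Jchain, which joins immunoglobulin units, were the 2 of these markers called higher in KO-labelled stressed HSCs. They were called against both WT-labelled stressed and KO-labelled normal HSCs. Of all genes, 0.145% were called in either direction in the first comparison and 2.23% higher in the second. Ebf1, a transcription factor that defines B cells, had 0 reads in KO-labelled stressed B, in both WT-labelled stressed libraries and in KO-labelled normal A and C. The 6 megakaryocyte markers summed to 1369 to 1373 CPM in KO-labelled stressed and 1292 to 1307 CPM in WT-labelled stressed libraries. In normal libraries they summed to 785 to 825 CPM in KO-labelled and 884 to 912 CPM in WT-labelled ones. Under stress 4 of the 6 were called higher in KO-labelled and 3 in WT-labelled HSCs, against 2.23% and 1.55% of all genes. Summed granulocyte and monocyte markers were 393 to 395, 400 to 422, 433 to 476 and 342 to 381 CPM in those groups. Erythroid markers were 1654 to 1661, 1680 to 1694, 1736 to 1821 and 1820 to 1838 CPM. Of 11 tested, 3 were called lower under stress in WT-labelled HSCs (median -0.62), against 1.75% of all genes. In KO-labelled HSCs 1 was called higher and 1 lower (median -0.21), against 2.23% and 2.28% of all genes. The 4 measured T and NK cell markers summed to 112 to 113, 129 to 135, 76.3 to 83.97 and 76.3 to 84.3 CPM. Of these, 1 was called higher under stress in each genotype, against 2.23% of all genes in KO-labelled and 1.55% in WT-labelled HSCs. The part of these cells in the values of Fanci, Fanca, Chek1, H2afx, Trp53bp1 and Lig4 was not tested.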

How the data were processed

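RNA from 10 HSC libraries was sequenced; per the submitters' processing notes, reads were aligned with Bowtie2 to mm10 and counted with featureCounts, with versions and strandedness not given in the sources used here. The deposited values are log2 CPM, which the authors made with limma voom as far as the table's name tells, and all columns share the same lowest and highest value, which quantile normalization gives. That step can narrow the spread of abundant genes. CPM is 2 to the power of the deposited log2 value.

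Genes with log2 CPM above 0 in at least 2 libraries were tested (15143). A model of 4 group means over all 10 libraries was fitted with limma (version 3.58.1, R 4.3.3) and trended variances, leaving 6 residual degrees of freedom, and p-values were adjusted by Benjamini-Hochberg over every tested gene. Adjusted p-values in the text are from this fit, 5 contrasts in all. A run on simulated data, drawn with the model's own spread, checked only that added differences were returned on average. It does not show how well the calls hold in these libraries. Differences are log2 differences of group means with limma's standard error (SE), the first-named group minus the second. The members and all gene lists were chosen with earlier results of these data known, so no list was tested as a set. Full values are given for members called in any contrast and for the 3 highest and 3 lowest moderated statistics per contrast.

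Depth was estimated from the steps between tied values of rarely read genes. Coordinates and exon lengths are from GENCODE vM21 (mm10), which held 20199 of 20270 gene identifiers, and promoters from RefSeq (GRCm38.p6). Shared transcript stretches were found with blastn 2.17.0. Alternatives concerned variance moderation, filter, pseudocount, scaling, gene length, library weights, block, fitted groups, threshold and single libraries. Some genes counted in the lists are not reported here by name.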

Additional observations from a re-analysis of the deposited data

How the results depend on the processing

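Counts of members called between genotypes and for the interaction were 0 in every alternative. In KO-labelled HSCs, 5 members were called under stress, but 1 with no trend in the variance and 1 with only the groups of the contrast in the fit, H2afx each time. Leaving out 1 library gave 1 to 5 calls, and a threshold of 0.10 gave 7. In WT-labelled HSCs, 2 were called, but 1, H2afx, with no trend, with no filter and with only the groups of the contrast, and 4 with a trend over gene length removed (Blm, H2afx, Lig4 and Rad50). Leaving out 1 library gave 1 to 2 calls there. H2afx was called in 22 of 22 alternatives in both genotypes, Trp53bp1 in 19, Fanci in 18, Fanca in 15, Lig4 in 14 and Chek1 in 9. No called difference changed sign. The member median under stress in WT-labelled HSCs was 0.19 with the length trend removed, where that of all genes was 0.09, and 0.055 to 0.18 without single libraries. The median interaction was 0.11 with the length trend removed and 0.14 to 0.24 without single libraries. The cause of these changes was not tested. Alternatives with fewer libraries or groups also have fewer degrees of freedom, and the part of this was not tested either.

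The letters A, B and C were not taken as pairs: over 13 pairs with the same letter, deviations from group means correlated at -0.02 to 0.04. With the letter as a replicate block, 3 members were called in KO-labelled HSCs (Fanci, H2afx and Trp53bp1) and 1 in WT-labelled HSCs (H2afx). Lig4 and Bard1, with under 100 reads in some library, are limited by depth, and no group has more than 3 libraries.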
